A study of Mus musculus with 10 samples.

Results

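The regions described here are those enriched for the transcription factor Dlx2 in the cortex and the olfactory bulb of mice 3 days after birth (P3), taken from 1 chromatin immunoprecipitation and sequencing (ChIP-seq) library per tissue. A region of one list was called shared when it overlapped a region of the other by at least 1 bp, and cortex-only or bulb-only otherwise, on chromosomes 1 to 19 and X. The cortex list held 2116 such regions covering 951 kb and the bulb list 732 covering 310 kb. Joined where they overlapped, they made 2661 regions, of 18606 in the 5 Dlx2 lists of the series. The other 3 lists came from embryos at day 16 (E16), 1 each from basal ganglia, cortex and bulb. Per the labels, tissue was fixed in 1.5% formaldehyde and the chromatin precipitated with an antibody to Dlx2. The labels give no strain, genotype, number of animals or pooling, and name a whole tissue in place of a cell type. Whole tissue holds many cells that do not make Dlx2, and fewer cells with Dlx2 and less binding per cell cannot be told apart. With 1 library per tissue, no value below has a replicate error and no test between the tissues was possible. Intervals are exact Clopper-Pearson 95% intervals that cover counting error only. Depth is unknown for both libraries, and a region absent from a list lay below the authors' threshold there and was not shown to be unbound.

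Dlx genes encode homeodomain transcription factors of the forebrain's GABAergic neurons, the cells that release the inhibitory transmitter GABA. They lie in pairs, with enhancers between the genes of a pair to which Dlx proteins themselves can bind, and homeodomains typically recognise short AT-rich sequences with a core such as TAATTA. Cortical interneurons are born in the ganglionic eminences and have largely entered the cortex by the first postnatal days. The olfactory bulb goes on receiving new GABAergic granule and periglomerular cells from the subventricular zone after birth. The series names Cxcl14, a chemokine gene, as a target that Dlx1 and Dlx2 directly promote.

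Of 25 promoter windows with a summit in both lists, CCAAT was in 19 (76%, 54.9 to 90.6) and a homeodomain core, TAATTA or CAATTA, in 2 (8%, 0.984 to 26.03), against 38.5% and 10.7% of all windows. A core was more frequent in the 173 windows with a summit in either list, at 28 (16.2%, 11.03 to 22.5). By class, 20 of 128 windows at cortex-only regions (15.6%, 9.81 to 23.1) and 6 of 18 at bulb-only regions (33.3%, 13.3 to 59.01) held a core. The intervals for both lists and for cortex-only regions include 10.7%. Of the 25 windows, those of 4 genes are shown, 3 with many CCAAT and, as the exception, Vldlr, 1 of the 2 with a core. Summits are the positions of highest signal that the authors' peak caller gave. The windows run from 250 bases before to 50 after an annotated start and are given from 5′ to 3′ along the gene's strand, from RefSeq on GRCm38.p6, the build that mm10 names. In the first 3 windows the capitals mark CCAAT, read on either strand as itself or as ATTGG. It is the element recognised by the trimeric factor NF-Y. Arntl encodes the circadian clock protein Bmal1 (chr7:113207215-113207514, plus strand, 8 places). Hsp90b1 encodes a chaperone of the endoplasmic reticulum (chr10:86705395-86705694, minus strand, 6 places), and Arrdc4 an arrestin-domain protein (chr7:68749189-68749488, minus strand, 6 places). In the window of Vldlr, a receptor for reelin, the capitals mark the homeodomain cores TAATTA and CAATTA, the latter also read as TAATTG (chr19:27216234-27216533, plus strand, 1 and 3 places).
Arntl: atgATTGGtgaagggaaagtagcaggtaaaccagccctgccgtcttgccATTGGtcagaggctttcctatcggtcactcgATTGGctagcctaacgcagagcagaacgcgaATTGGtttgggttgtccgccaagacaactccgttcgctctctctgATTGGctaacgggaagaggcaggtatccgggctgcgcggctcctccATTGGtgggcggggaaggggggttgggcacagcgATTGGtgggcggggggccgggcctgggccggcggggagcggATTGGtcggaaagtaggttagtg
Hsp90b1: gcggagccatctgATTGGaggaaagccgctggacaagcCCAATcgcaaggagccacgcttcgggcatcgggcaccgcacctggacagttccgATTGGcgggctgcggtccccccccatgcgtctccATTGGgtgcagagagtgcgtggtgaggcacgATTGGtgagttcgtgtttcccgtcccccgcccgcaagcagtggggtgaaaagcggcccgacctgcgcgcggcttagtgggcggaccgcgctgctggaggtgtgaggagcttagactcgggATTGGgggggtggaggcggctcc
Arrdc4: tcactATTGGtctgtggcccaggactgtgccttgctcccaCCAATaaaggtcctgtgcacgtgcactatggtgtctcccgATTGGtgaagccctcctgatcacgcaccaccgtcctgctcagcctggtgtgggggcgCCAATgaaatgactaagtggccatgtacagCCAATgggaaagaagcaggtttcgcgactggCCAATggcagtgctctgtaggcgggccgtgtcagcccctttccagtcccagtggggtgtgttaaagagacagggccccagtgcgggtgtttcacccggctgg
Vldlr: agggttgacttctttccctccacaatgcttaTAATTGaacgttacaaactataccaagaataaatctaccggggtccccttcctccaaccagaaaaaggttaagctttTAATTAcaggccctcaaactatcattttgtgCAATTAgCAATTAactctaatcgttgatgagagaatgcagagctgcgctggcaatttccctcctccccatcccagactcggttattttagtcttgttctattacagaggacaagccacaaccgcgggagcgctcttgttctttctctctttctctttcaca

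Fold enrichment is the authors' ratio of signal to local background at a summit, as MACS2 writes it, and it ranks regions only within a list. At these starts it was 7.14 in the cortex list and 7.04 in the bulb list for Arntl, 5.24 and 5.64 for Hsp90b1, 3.86 and 7.73 for Arrdc4, and 9.20 and 6.70 for Vldlr. All 4 regions were shared, with summits 31, 29, 100 and 25 bp apart. The Vldlr window held no CCAAT and the other 3 held neither homeodomain core.

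The lists overlapped in a minority of their regions. Of the bulb regions, 186 of 732 were shared (25.4%, 22.3 to 28.7), and of the cortex regions 186 of 2116 (8.79%, 7.62 to 10.1). This left 546 bulb-only and 1930 cortex-only regions. With the 732 regions of each list highest in −log10 q, the authors' measure of significance, 119 were shared (16.3% of each). The overlaps made 187 pairs, because 1 region in each list met 2 of the other. Where regions met, their summits mostly lay close together. The median distance was 46 bp, 144 of 187 pairs (77.0%) were within 100 bp and 169 (90.4%) within 200 bp, and the largest distance was 995 bp. The smallest overlap was 117 bp, near the heat shock protein gene Hspa4. At the other side of the rule, unshared regions rarely lay beside one another. A bulb summit lay within 10 kb of 23 of 1930 cortex-only summits (1.19%, 0.757 to 1.78), and a cortex summit within 10 kb of 16 of 546 bulb-only summits (2.93%, 1.68 to 4.72). The nearest misses were gaps of 267 bp at Siah1a, 329 bp at Cic and 346 bp beside Dlx6.

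Strong regions were shared more often than weak ones. By −log10 q 14 of the 20 strongest bulb regions (70%, 45.7 to 88.1) and 51 of the 100 strongest (51%, 40.8 to 61.1) were in the cortex list. In the later groups of 100 bulb regions the share lay between 13% and 26%, with no steady fall. In the cortex list 16 of the 20 strongest (80%, 56.3 to 94.3) and 46 of the 100 strongest (46%, 35.98 to 56.3) were in the bulb list. The share was 28.8% in the first 212 cortex regions, 15.6% in the next and 2.88% in the last 208. Of the shared regions among the 100 strongest, 20 of 51 in the bulb list and 22 of 46 in the cortex list lay within 1 kb of a small RNA gene. Shared cortex regions were also wider than cortex-only ones, with medians of 512.5 and 389 bp, and 21 of the 38 cortex regions over 1 kb were shared. Median fold enrichment was 5.29 for shared and 4.40 for cortex-only regions, and in the bulb list 5.88 for shared and 5.58 for bulb-only regions.

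**Figure D1:**
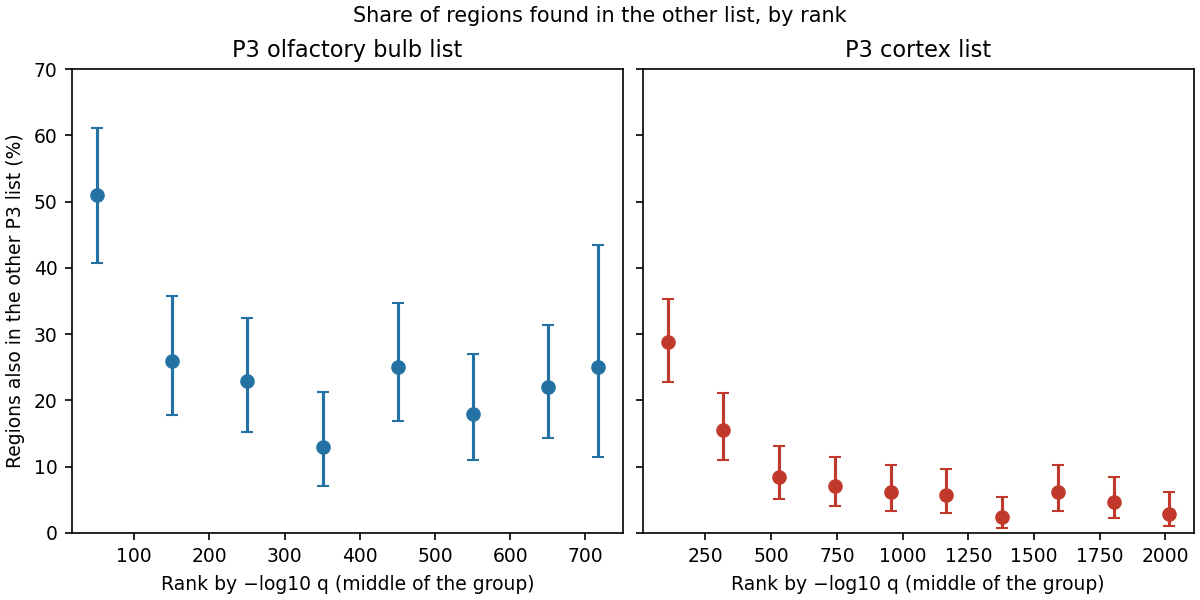
Percent of regions found in the other P3 list (vertical axis) by rank in −log10 q (horizontal axis), in groups of 100 bulb regions and of 212 cortex regions; the last group is shorter in each. Points are shares and bars exact 95% intervals for counting error; the share is 51% in the first bulb group and 28.8% in the first cortex group.

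The 187 shared pairs fell into 4 kinds by where they lay and which E16 lists held either region of the pair. Pairs within 1 kb of a small RNA gene were set apart first, whichever E16 lists held them, and were 36 (19.3%). Of the other pairs, 35 (18.7% of all 187) were in the E16 bulb list but absent from the E16 basal ganglia list. A further 89 (47.6%) were in the basal ganglia list and 27 (14.4%) in neither. The kinds differed in strength. Median fold enrichment in the cortex and bulb lists was 10.99 and 8.06 at small RNA genes, 14.9 and 6.04 for pairs in the E16 bulb but not the basal ganglia list, 4.81 and 5.88 for pairs in the basal ganglia list, and 4.24 and 4.55 for the rest. Over all pairs, fold enrichment in one list ran with that in the other at Spearman rho 0.463 (187 pairs, which share loci and local sequence), and at 0.360 over the 151 pairs away from small RNA genes.

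**Figure D2:**
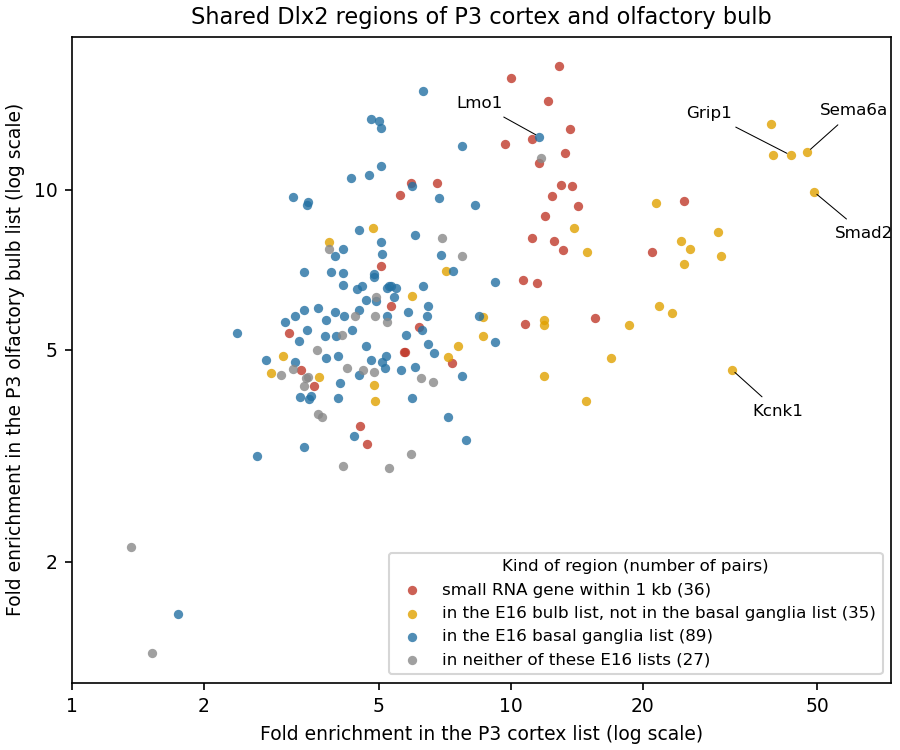
Fold enrichment of the 187 shared pairs in the P3 cortex list (horizontal axis) and in the P3 bulb list (vertical axis), both on log scales, 1 point per pair and coloured by kind. Away from small RNA genes, pairs found in the E16 bulb list but not in the basal ganglia list reach 49.1 in the cortex, while those in the basal ganglia list reach 11.6 there.

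The first kind lay mostly, in 32 of 36 pairs, at small nuclear RNA (snRNA) genes, whose transcripts form the splicing machinery, among which the annotation counts the U3 genes, whose transcripts process ribosomal RNA. The other 4 lay at the small nucleolar RNA genes Snord118 and Snord13, at 1 transfer RNA gene and at 1 gene of 5S ribosomal RNA. All 31 bulb regions within 1 kb of an snRNA gene were shared. In the cortex list 32 shared and 8 cortex-only regions lay at such genes, so that 17.2% of shared regions (12.1 to 23.4) and 0.415% of cortex-only regions (0.179 to 0.815) did. Runs of gene copies accounted for many of them. In a run on chromosome 11 (87422471 to 87471813, within Tex14) 6 regions at Rnu1a1, a U1 gene, at Gm22068 and at the U3 genes Rnu3b1 to Rnu3b4 had fold enrichments of 11.2 to 14.3 in the cortex list and 6.68 to 17.1 in the bulb list. A run on chromosome 12 (54696427 to 54738960, near Eapp and Snx6) held 7 regions in each list, at 9.71 to 24.9 and 7.62 to 12.2. A further run, on chromosome 11 (101604688 to 101658692, near Rdm1 and Arl4d), held 5, with Rnu2-10 at 13.6 and 13.0. Each of these 18 regions was shared. Outside the runs lay genes of the minor spliceosome, which removes a rare class of introns, with Rnu11 at 13.8 in the cortex and 10.2 in the bulb list and Rnu12 at 5.59 and 9.76. Rnu3a (8.28) and Rnu7 (6.48), the U7 gene of histone RNA processing, were in the cortex list alone. Reads from near-identical gene copies can be placed at any of them, so the value of a single copy in these runs is uncertain. Transfer RNA genes gave 7 cortex-only regions and 1 shared region.

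The second kind led the cortex list. The 5 strongest cortex regions, and 14 of the 20 strongest, were shared regions away from small RNA genes that the E16 bulb list also held and the E16 basal ganglia list did not. The strongest lay 42.1 kb from Sema6a, a transmembrane semaphorin gene (47.5 in the cortex list, 11.8 in the bulb list). The others of the 5 lay within Smad2, a mediator of TGF-beta signalling (49.1 and 9.91), 9.38 kb from Sowahb (39.3 and 13.3), within Grip1, whose product binds AMPA receptors (43.5 and 11.6), and within the amino acid transporter gene Slc38a9 (39.7 and 11.6). The order was not kept in the bulb list, where these regions held ranks 11, 82, 27, 46 and 23. The region within Kcnk1, a leak potassium channel gene, stood at 31.9 in the cortex and 4.59 in the bulb, ranks 8 and 683. Regions within Zbtb4 (30.1 and 7.49), D7Ertd443e (29.8 and 8.31), Cdk14 (24.5 and 7.998) and Siah1a (21.5 and 9.43) belonged to the same kind. The median width of this kind in the cortex list was 806 bp, against 427 bp for the third kind. None of the 35 pairs was in the E16 cortex list. In the deposited lists the region names of P3 cortex and E16 bulb begin with the antibody's target and those of the P3 bulb with the assay. A mark of duplicate removal pairs them otherwise. It is on 1666 of 1666 E16 bulb and 734 of 734 P3 bulb names and on 0 of 2139 P3 cortex names. All 14795 E16 basal ganglia and all 6333 E16 cortex names also carry it, so the P3 cortex list alone lacks it. The part of these differences in the values was not tested.

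The third kind, in the E16 basal ganglia list, included transcription factor genes of the forebrain. Of its 89 pairs, 33 were also in the E16 cortex list. Pbx3 encodes a homeodomain partner of other homeodomain proteins, and its region had 8.30 in the cortex list and 9.35 in the bulb list. A region 16.2 kb from Lmo1, a LIM-domain gene, had 11.6 and 12.6. The Vldlr start (9.20 and 6.70), a region 145 kb from the potassium channel gene Kcnn2 (7.76 and 12.1), and regions within Lrmda (4.82 and 13.6), the synaptotagmin gene Syt9 (6.94 and 7.52) and Spon1 (7.399 and 7.04) followed. Fold enrichment was higher in the bulb list for Lrmda and higher in the cortex list for Vldlr, but values of separate lists are no common scale. The fourth kind was led by a region within Sec22c, a vesicle transport gene (11.7 and 11.5), and one within Ctif (6.98 and 8.12), and included the starts of Hsp90b1, Arrdc4, Sel1l, Sp2 and Nfya, the last encoding a subunit of NF-Y. A few shared regions had a low fold enrichment. The one 25.7 kb from Col19a1 spanned 4159 bp in the cortex and 4786 bp in the bulb with 1.37 and 2.14, ranks 954 and 15, and that 124 kb from Fgf14 had 1.75 and 1.60. Below 2-fold lay 30 cortex regions and 4 bulb regions, 3 and 2 of them shared.

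The classes differed in how often they were already listed at E16. Of the 546 bulb-only regions, 389 were in the E16 bulb list (71.2%, 67.2 to 75.01), 371 in the E16 basal ganglia list (67.9%, 63.9 to 71.8), 315 in both (57.7%), and 101 in no E16 list (18.5%, 15.3 to 22.01). Of the 1930 cortex-only regions, 165 were in the E16 bulb list (8.55%, 7.34 to 9.89), 528 in the basal ganglia list (27.4%, 25.4 to 29.4), 76 in the E16 cortex list (3.94%, 3.11 to 4.90), and 1363 in none (70.6%, 68.5 to 72.6). Shared regions stood near the bulb-only ones, with 73.1% (66.1 to 79.3) in the E16 bulb list and 61.3% (53.9 to 68.3) in the basal ganglia list by their cortex regions. They were in the E16 cortex list more often than either unshared class, at 17.7% (12.5 to 24.0) against 5.86% (4.04 to 8.17) for bulb-only regions. The E16 lists differ in length, with 14732, 6307 and 1665 regions for basal ganglia, cortex and bulb, which sets how many regions each can hold. The E16 basal ganglia regions that met shared ones had a median fold enrichment of 9.75 (n = 114), those that met bulb-only ones 8.05 (n = 370) and those that met cortex-only ones 5.97 (n = 516), against 4.55 over that whole list.

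**Figure D3:**
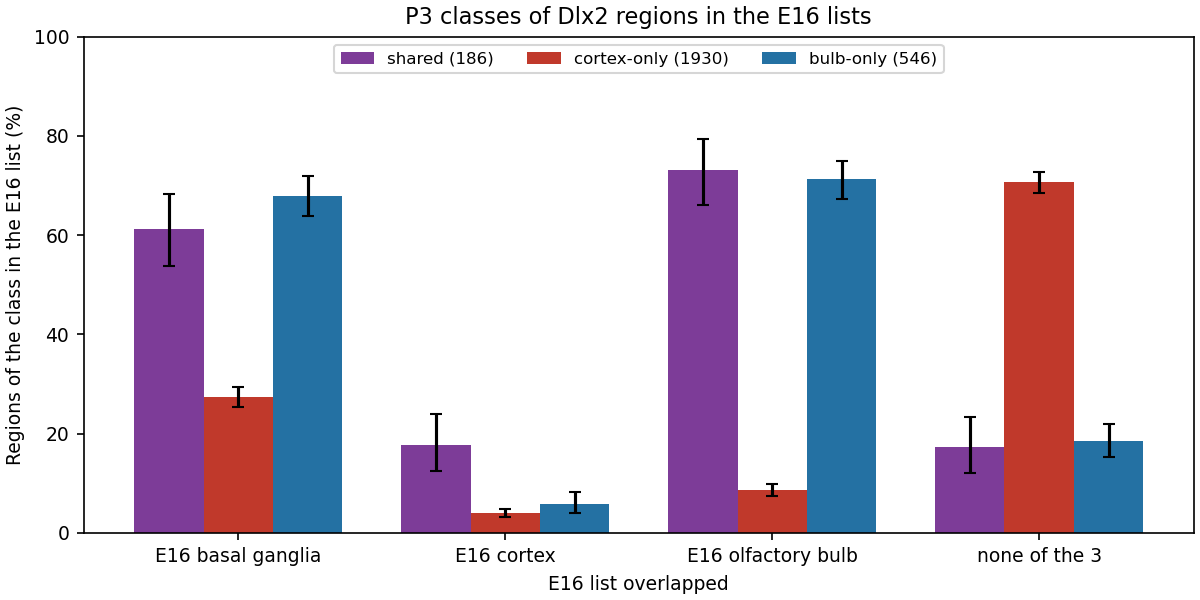
Percent of shared, cortex-only and bulb-only P3 regions (vertical axis) that overlap each E16 list or none (horizontal axis); bars are shares and whiskers exact 95% intervals for counting error. In the E16 bulb list 73.1% of shared and 71.2% of bulb-only regions are found, against 8.55% of cortex-only regions.

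The 15 strongest bulb-only regions followed that pattern, as 14 were in the E16 bulb list and 13 in the basal ganglia list. They lay within Nalcn, the sodium leak channel gene (14.99), Gnao1, a G protein subunit gene of neurons (12.5), Fam171b (14.5), Otud7a (10.4), Abcb1a, an efflux pump gene (13.5), Ptk7, a planar polarity receptor gene (11.2), Gng4, a G protein subunit gene (10.8), and BC052040 (12.1). Another lay within Erbb4, the neuregulin receptor gene of migrating interneurons (11.1). Away from coding genes, summits lay 18.9 kb from Acadsb (18.1), 56.7 kb from the adhesion gene Nectin1 (14.3), 229 kb from Id4, an inhibitor of bHLH factors (13.0), 8.56 kb from Nptx2, a neuronal pentraxin gene (11.98), and 21.9 kb from Nek2 (12.8). Only the region within Myo3a was in no E16 list, and it was wide (1012 bp) and low in fold enrichment (2.63).

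Of the 15 strongest cortex-only regions, 1 was in the E16 basal ganglia list, 7 in the E16 bulb list, none in the E16 cortex list and 7 in no E16 list. That in the basal ganglia list lay within Cyfip2, a regulator of actin at synapses (22.9). Many were far from any coding gene, with summits 549 kb from Btbd3 (26.7), 711 kb from Cetn3 (18.99), 765 kb from Myc (13.1), 374 kb from Cryba4 (18.9) and 340 kb from Atp23 (15.8). One lay 109 kb from Arrdc4 (23.7), whose start held the separate shared region above. Others lay within Fbxl13 (25.4), the agouti gene a (17.8), Ust (20.6) and D430041D05Rik (17.4), and at a boundary of Kdm8 (21.5, 1870 bp wide). Of the 68 cortex-only regions at 10-fold or more, 5 were in the basal ganglia list and 12 in the E16 bulb list. Of the 23 bulb-only regions at 10-fold or more, 20 and 23 were. Fold enrichment is no common scale between the lists, so this cut need not select regions of like strength in each. The missing mark of duplicate removal in the P3 cortex names cannot be told apart from the tissue.

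The classes also differed in position. Summits within 1 kb of the boundary of an annotated gene of any type made up 38.7% of shared cortex summits (31.7 to 46.1), 16.3% of cortex-only summits (14.6 to 17.99) and 7.69% of bulb-only summits (5.60 to 10.3). Within 1 kb of a coding gene's start, leaving out chromosome 18, were 31 of 175 shared (17.7%, 12.4 to 24.2), 179 of 1853 cortex-only (9.66%, 8.35 to 11.1) and 16 of 528 bulb-only summits (3.03%, 1.74 to 4.87). Outside all genes were 22.6%, 36.9% and 39.2%. With coding genes alone the boundary shares fell to 21.0%, 11.3% and 4.40%, and those outside rose to 42.5%, 47.2% and 49.5%, in the same order of classes.

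CCAAT was more frequent in promoter windows with a summit than in all windows, and so was CAATTA, while TAATTA stood near its share over all windows. RefSeq gave 21045 promoter windows of 17274 coding genes, searched on both strands, none of them on chromosome 18, and 173 windows of 164 genes held a P3 summit. CCAAT was in 118 of the 173 (68.2%, 60.7 to 75.1), against 38.5% of all windows. It stood at 3 or more places in 66 (38.2%, 30.9 to 45.8), against 3.92% of all windows. By class, 18 of the 25 windows with a summit in both lists had 3 or more (72%, 50.6 to 87.9), as did 13 of 18 windows at bulb-only regions (72.2%, 46.5 to 90.3) and 34 of 128 at cortex-only regions (26.6%, 19.1 to 35.1). TAATTA was in 5.20% of windows with a summit (2.41 to 9.65) and 4.47% of all, CAATTA in 12.7% (8.14 to 18.6) and 6.85%, and the E-box CANNTG in 58.4% (50.7 to 65.8) and 69.0%. CCAAT and CAATTA can overlap as CCAATTA. The windows with a summit were also richer in bases G and C, with a median of 60.3% against 56.7%, and held a median of 22 CpG against 13. Windows of 1 gene or of a divergent pair can share bases, and a match is no evidence of binding by a given factor. Promoter regions were weak within their lists, with median fold enrichments of 3.82 in the cortex and 4.51 in the bulb. Of 136 cortex promoter regions, 27 were in the E16 basal ganglia list (19.9%, 13.5 to 27.6), 17 in the E16 bulb list (12.5%, 7.45 to 19.3) and 1 in the E16 cortex list, against 30.3%, 14.2% and 5.15% of all cortex regions. Of 40 bulb promoter regions, 8 were in the basal ganglia list (20%, 9.05 to 35.6), 10 in the E16 bulb list (25%, 12.7 to 41.2) and 1 in the E16 cortex list, against 66.0%, 71.6% and 8.88% of all bulb regions. All 10 in the E16 bulb list were among the 26 shared ones (38.5%, 20.2 to 59.4).

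Of the Dlx genes themselves, the Dlx5/Dlx6 pair was in both lists and the Dlx1/Dlx2 pair in the cortex list alone. At Dlx1/Dlx2, on chromosome 2, 5 cortex regions had fold enrichments of 5.96, 4.33, 3.60, 5.76 and 6.68. Their summits lay 10.8 kb before the lower end of Dlx1 and 0.126, 2.57, 8.10 and 10.2 kb after it, the last 2 between the genes, where the intergenic enhancers of this pair are known to lie. All 5 were also listed at E16 in basal ganglia and bulb, and 4 in the E16 cortex list. The nearest P3 bulb summit was 893 kb from Dlx1. At Dlx5/Dlx6, on chromosome 6, the region between the genes (6869305 to 6869952 in the cortex list) had 5.02 in the cortex list, rank 429, and 13.4 in the bulb list, rank 17. The region 1.44 kb beyond the other end of Dlx6 (6861595 to 6862369) had 9.20 and 5.17, ranks 173 and 411. So the order of the pair was opposite in the lists. Another 2 regions between these genes (3.21 and 4.33) were cortex-only, and the first began 346 bp from the end of the bulb region. No region lay within 100 kb of Cxcl14 in either list. The nearest in both was 1 shared region 305 kb away and 7.31 kb from Tgfbi, with 24.9 in the cortex and 7.25 in the bulb list.

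**Figure D4:**
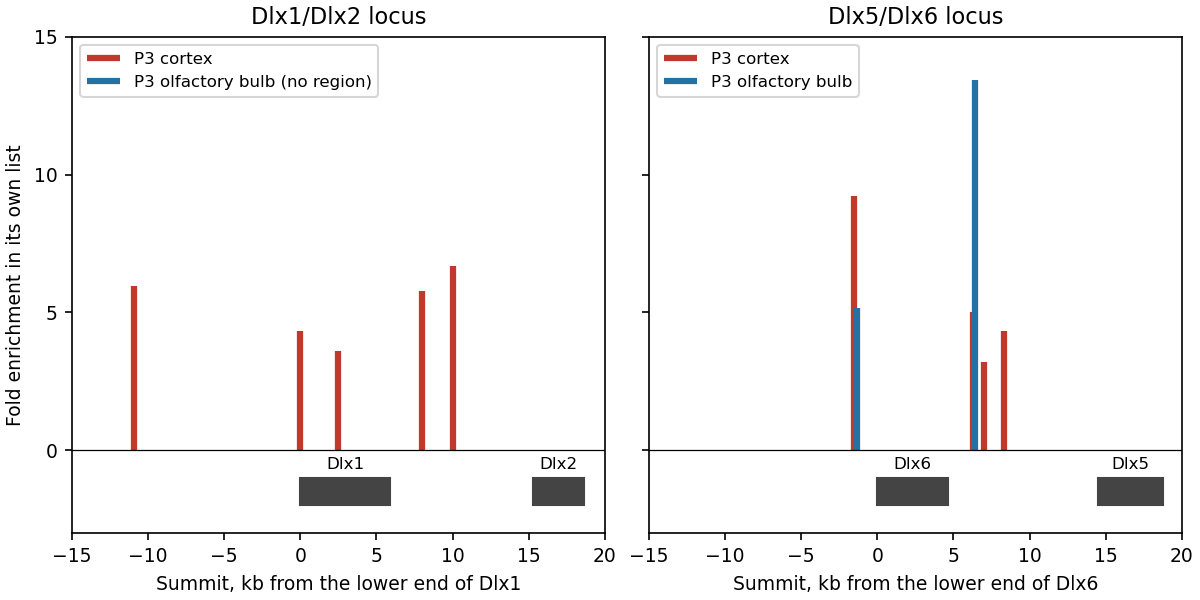
Dlx2 regions at the Dlx1/Dlx2 and Dlx5/Dlx6 loci, as summits in kb from the lower end of Dlx1 or Dlx6 (horizontal axis) with fold enrichment in the region's own list as height (vertical axis) and gene bodies as grey boxes. The 5 cortex regions at Dlx1/Dlx2 have no counterpart in the P3 bulb list. The tallest bar at Dlx5/Dlx6 is the bulb region between the genes, at 13.4.

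Occupied genes are coding genes with a summit in the body or within 10 kb of it, which does not show that Dlx2 regulates it. Of 21631 coding genes, 1332 were occupied in the cortex list (6.16%) and 445 in the bulb list (2.06%). A shared region occupied 145 genes (0.67%), separate regions of both lists 62 (0.287%), cortex regions alone 1125 (5.2%) and bulb regions alone 238 (1.1%). With 732 regions in each list the same counts were 96, 26, 379 and 323. Long genes collect regions more easily, and occupied genes were long. The median length was 17.3 kb for all coding genes, 37.8 kb for genes with a shared region, 60.4 kb for cortex-only, 124 kb for bulb-only and 344 kb for genes with separate regions in both. At those 62 genes the closest summits of the lists lay 1.80 to 710 kb apart, with a median of 58.7 kb.

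Genes of GABA synthesis and transport were occupied in the bulb list in 3 of 7 cases, against 2.06% of all genes, and in the cortex list in 1 of 7, against 6.16%. The bulb members were Gad1 (5.36) and Gad2 (7.01), whose enzymes make GABA, and Abat (4.70), whose enzyme breaks it down. All 3 of these regions were in both the basal ganglia and the bulb list of E16 and missing from the P3 cortex list. The cortex member was Slc6a11, a GABA transporter gene of glia, with a summit 5.22 kb outside the gene (6.68) in no E16 list. A cortex count of 1 of 7 is near the share over all genes and is no result about these genes.

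Of 31 transcription factor genes of the GABAergic lineage, 8 were occupied in the cortex list (25.8%, against 6.16% of all genes) and 6 in the bulb list (19.4%, against 2.06%). A shared region stood at 4, among them Pbx3, Zeb2, a repressor that directs interneuron fate (4.03 and 4.86), and Npas1 (5.05 and 7.18), the last within 1 kb of an annotated 5S ribosomal RNA gene. Prox1 (5.59), Npas3 (5.77) and Sp9 (3.87) were among those in the cortex list alone, and Sox6 (6.83) and Zfhx3 (5.32) in the bulb list alone. Zeb2 held unshared regions beside the shared one. Among 17 genes of olfactory bulb interneurons, 2 were occupied in the cortex list (Pbx3 and Sp9) and 3 in the bulb list (Pbx3, Gad2 and Synpr, at 4.83 for the last). Among 10 genes of bulb projection neurons the bulb list held Tbx21, a T-box gene of mitral and tufted cells (8.12), and Nrp1 (4.23), and the cortex list held Reln (7.94). Of 16 genes of cortical interneuron subtypes, Pnoc, the nociceptin precursor gene, had a shared region (3.65 and 5.99) and Reln the cortex region already given. In the cortex list 11.8% of the bulb interneuron, 10% of the projection neuron and 12.5% of the cortical interneuron genes were occupied, and in the bulb list 17.6%, 20% and 6.25%. The cortex counts of 2 of 17, 1 of 10 and 2 of 16 and the bulb count of 1 of 16 are near the shares over all genes and are no result about these genes. The bulb counts of 3 of 17 and 2 of 10 are not separate from other lists. Pbx3, Gad2 and Nrp1 are also members of the GABAergic factor, GABA synthesis and migration lists, in that order.

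Of 23 migration genes, 7 were occupied in each list, against 6.16% of all genes in the cortex and 2.06% in the bulb list. These genes are long, with a median of 197 kb. None had a shared region, in lists where 91.2% of all cortex and 74.6% of all bulb regions were unshared. Erbb4 held 4 cortex regions (up to 9.15) and 1 bulb region (11.1), with the closest summits 13.8 kb apart, and the ephrin receptor gene Epha5 held 2 (up to 4.69) and 1 (10.2), 22.8 kb apart. The cortex list alone held the receptor genes Robo2 (10.3), Robo1 (6.50) and Cxcr4 (4.12) and the ligand genes Nrg1 (8.12) and Sema3a (3.47). The bulb list alone held the ligand genes Efna5 (7.49), Nrg3 (6.29) and Slit1 (4.83) and the receptor genes Plxna4 (5.32) and Nrp1. Robo receptor genes were in the cortex list and the ligand gene Slit1 in the bulb list. The reverse held for the ligand gene Sema3a, in the cortex list, and the receptor genes Plxna4 and Nrp1, in the bulb list. Of the neuregulin genes Nrg1 was in the cortex list and Nrg3 in the bulb list. Neither list held only receptor or only ligand genes.

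Among 21 genes of excitatory synapses and adhesion, whose median length was 378 kb, 7 were occupied in the cortex list (33.3%, against 6.16% of all genes) and 5 in the bulb list (23.8%, against 2.06%). Grip1 had the shared region, Grin2a was among those with separate regions (4.89 and 5.80), Dlg2 (5 regions, up to 4.93), Nrxn3 (7.04), Lrrtm4 (5.05) and Gria3 (3.97) were in the cortex list alone, and Elfn1 (6.29) and Gria4 (5.29) in the bulb list alone. Of 15 inhibitory synapse genes, with a median length of 148 kb, 3 were in the cortex list (20%), Gabrb1 (3.83), Gabrb2 (3.19) and the scaffold gene Gphn (3.79), and none in the bulb list, all 3 below the cortex list's median fold enrichment of 4.47. Potassium channel genes, with a median length of 237 kb, were occupied in 7 of 22 cases in the cortex list (31.8%) and 4 in the bulb list (18.2%). Kcnk1, Kcnip4 (4.33 and 10.5) and Kcnh7 (4.69 and 5.08) had shared regions and Kcnd2 separate ones (4.33 and 6.29). Kcnh1 (6.65), Kcnj6 (5.96) and Kcnq5 (4.69) were in the cortex list alone.

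Of 19 neuron survival and apoptosis genes, the cortex list held 2 (10.5%), Bdnf (4.15) and Ntrk2 (4.51), which encode a neurotrophin and its receptor, and the bulb list none. Of 17 Notch pathway genes, the cortex list held 2 (11.8%), Maml2 (9.20) and Notch2 (4.51), and the bulb list none. Of all genes, 6.16% were occupied in the cortex list and 2.06% in the bulb list. Cortex counts of 2 in these lists are near that background and are no result about their genes. The same holds for a bulb count of 0 in them and in that of inhibitory synapse genes. Of 20 genes of the cortical glutamatergic lineage, 2 were occupied in each list (10%). The cortex count is near the 6.16% of all genes and is no result about these genes. Sox5 (4 regions, up to 4.69) was among those in the cortex list, and Fezf2 (6.04) and Cux1 (8.22) were in the bulb list. Markers of other cell types were occupied in 0 to 1 of 10 cases per list and tissue. These were Sox9 (3.87), Ptprc (3.65) and Cdh5 (3.53) in the cortex and the glial glutamate transporter gene Slc1a2 (7.01) in the bulb, with no oligodendrocyte marker in either. Neither list occupied any of 10 liver and muscle genes or of 15 ubiquitous genes. These genes are short, with medians of 8.87 and 5.40 kb against 17.3 kb for all coding genes. Their counts of 0 and those of the markers are near the background and are no result about these genes. With lists of 6 to 31 genes and 1 library per tissue, these counts are descriptions.

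**Figure D5:**
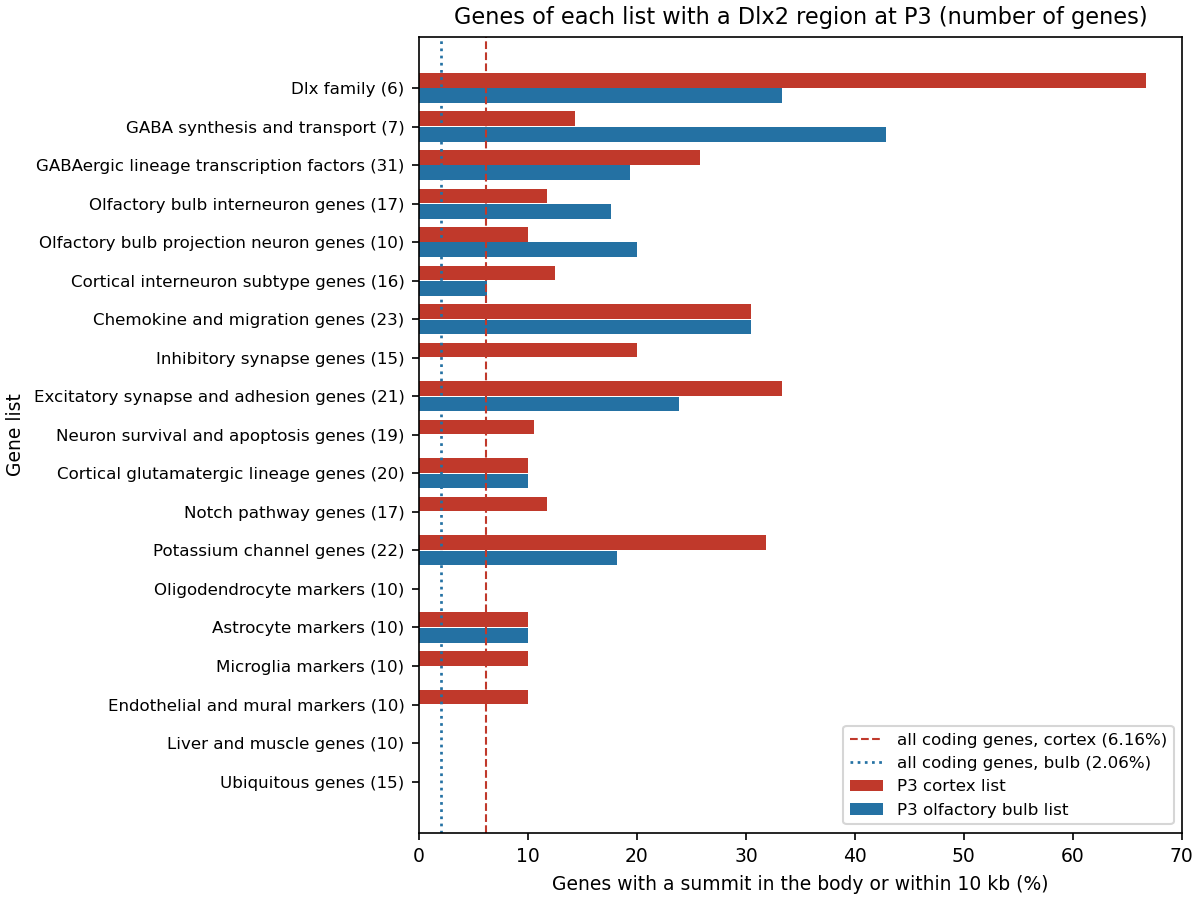
Percent of the genes of each list (vertical axis, number of genes in brackets) with a summit in the body or within 10 kb (horizontal axis), for the P3 cortex and P3 bulb lists. Vertical lines give the shares over all coding genes, 6.16% in the cortex and 2.06% in the bulb. GABA synthesis and transport is at 42.9% in the bulb (3 of 7 genes) and 14.3% in the cortex (1 of 7, near the background).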

How the data were processed

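Dlx2 ChIP-seq regions of P3 cortex and P3 olfactory bulb were compared, with 1 library per tissue; input libraries were not analysed here. The authors deposited a narrowPeak list per library. The submitters' processing notes name Trimmomatic, Bowtie2, SAMtools and MACS2, with no versions, and mm10. Control, threshold and depth: not given in the sources used here. Reads were single-ended, of 50 nucleotides, per the labels' protocols. The deposited fold enrichment (a ratio), the deposited −log10 of the p-value and q-value and the deposited score are the authors' values for a region in its own list; the score was not used. Mitochondrial, Y and unplaced regions were left out (23 of 2139 in the cortex, 2 of 734 in the bulb list). Overlaps (at least 1 bp), summits, positions, genes and motifs were computed in Python 3.11.15 with pandas 2.3.3 and SciPy 1.17.1, and the overlap code was checked on simulated data against bedtools 2.31.1. Genes and promoter windows came from RefSeq tables of GRCm38.p6; 274 of 274 genes of the 19 lists were found. Members, gene lists and rules were chosen with earlier results of these data known. Named genes are Dlx1, Dlx2, Dlx5, Dlx6 and Cxcl14, those at the 15 leading regions of each class and the occupied members of each list; other shared examples, and the count of CCAAT at 3 or more places, were chosen after their values were seen.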

Additional observations from a re-analysis of the deposited data

How the results depend on the processing

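Among the alternatives tried, a reciprocal overlap of 50%, summits within 200 bp, −log10 q of at least 5 and leaving out regions over 1 kb moved the shared part by less than its counting interval, to between 22.4% and 23.6% of bulb and between 7.75% and 9.23% of cortex regions. With both lists at the shorter length of 732 regions, 119 were shared, 16.3% of each. Without regions at small RNA genes 21.7% of bulb and 7.27% of cortex regions were shared. With coding genes only, 42.5% of shared summits of either list, 47.2% of cortex-only and 49.5% of bulb-only summits were outside genes, and 21.0% (cortex summits) or 20.4% (bulb summits) of shared, 11.3% of cortex-only and 4.40% of bulb-only summits at a boundary. With gene bodies extended by 50 kb, 322 genes had a shared region, 118 separate regions, 2265 cortex regions alone and 431 bulb regions alone. At equal list length these counts were 96, 26, 379 and 323, so the excess of cortex-only over bulb-only genes depends on list length. With windows at least 150 bases covered, an alternative chosen after seeing the data, 35.7% held CCAAT at 3 or more places. No paired analysis was possible because each tissue has 1 library. Unknown depth limits every absence, and fold enrichment cannot be compared between the lists as a level.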

Other observations

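CCAAT followed after 9 bases by CCACG, the form of the endoplasmic reticulum stress response element, was searched for after the values were seen and stood in 3 of 173 promoter windows with a P3 summit (1.73%, 0.359 to 4.98) and in 30 of 21045 windows in all (0.143%). These were the windows of Hsp90b1, shared, with 2 such elements, of Hspa5, the gene of the chaperone BiP, in the cortex list alone (3.68), and of Derl3, a gene of protein retrotranslocation, in the bulb list alone (4.49).

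Read from the E16 lists, of the 100 strongest E16 bulb regions 90 were in the P3 bulb list (90%, 82.4 to 95.1), 41 in the P3 cortex list (41%, 31.3 to 51.3) and 37 in both. Of the 100 strongest E16 basal ganglia regions, 23 were in the P3 cortex list, 20 in the P3 bulb list and 12 in both. Of the 100 strongest E16 cortex regions, 3 were in the P3 cortex list, 2 in the P3 bulb list and none in both (0 of 100, an upper bound of 3.62%).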
